A study of Homo sapiens with 64 samples.

Results

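Immediate early and short-lived mRNAs were followed through every table of counts of this study as a list of 44 genes named by symbol. They were the AP-1 subunits FOS, FOSB, FOSL1, FOSL2, JUN, JUNB and JUND, the regulators EGR1, EGR2, EGR3 and NR4A1, the IER genes IER2, IER3 and IER5 with SERTAD1, and the factors KLF2, KLF4, KLF6 and KLF10. The list also held MYC and MCL1, the phosphatases DUSP1, DUSP2, DUSP4, DUSP5, DUSP6, DUSP8 and DUSP10, and the RNA-binding proteins ZFP36, ZFP36L1 and ZFP36L2. It was completed by the feedback inhibitors NFKBIA, TNFAIP3 and SOCS3, the kinases PIM1, PIM3 and SGK1, the matricellular proteins CYR61 and CTGF, and ID1, ID2, ID3, HES1 and BHLHE40. All 44 were present among 26364 genes of the C4-2 and RIP tables, 25207 genes of the HEK293T table and 31796 gene names of the SLAM-seq tables. The rule that lists them uses no measured value, but the members were chosen with earlier results of these data known.

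Immediate early genes are transcribed within minutes of a growth factor, stress or cytokine signal without new protein synthesis, and their mRNAs are removed again soon after. Many carry AU-rich elements in the 3′ UTR, which are bound by proteins such as ZFP36 (tristetraprolin) that recruit the deadenylation machinery. FBL (fibrillarin) is the 2′-O-methyltransferase of the box C/D small nucleolar ribonucleoproteins, and NOP56 is a core protein of the same particles. The title of the series proposes that FBL also methylates mRNA and promotes its stability. A change of stability shows soonest in mRNAs that turn over within hours.

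Of 64 libraries, 60 were used; 4 nanopore libraries were not analysed here. HEK293T is a human embryonic kidney line, and C4-2 is a prostate cancer line derived from LNCaP. HEK293T cells received a control siRNA (siCTRL), siFBL or siNOP56 and were sampled at 0, 6, 12 and 24 h; C4-2 cells received siCTRL or siFBL and were sampled at 0, 3, 6 and 12 h. Each siRNA and hour had 2 libraries. The design text presents these courses as measurements of mRNA half-life; none of the sources used here says how transcription was stopped. It also writes shNOP56 where the labels have siNOP56. RIP-seq used an anti-FBL antibody on C4-2 cells with siCTRL (2 RIP and 2 input libraries, with no control antibody). SLAM-seq labelled C4-2 cells carrying siCTRL or siFBL with 100 µM 4-thiouridine for 24 h, chased with 10 mM uridine, and sequenced 16 libraries in which converted bases read as T>C. The labels do not say that replicates are separate cultures, so p-values measure the spread between these libraries, which may be technical.

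Library totals, in M (mega) counts, ran from 79.0 to 106.1 M counts in C4-2 and from 16 to 19.9 M in HEK293T. They ran from 22.9 to 33.3 M in the RIP tables. For SLAM-seq the values are mapped reads, worked out from the read counts and the deposited CPM, and ran from 14.3 to 60.3 M. Levels are CPM (counts over the library total, per M counts) after TMM scaling, so a change shared by the average mRNA cannot be seen, and the loss of an mRNA is a loss relative to the others. FBL fell from 305 and 265 CPM to 3.63 and 2.76 CPM in C4-2 at 0 h and from 322 and 313 CPM to 17.7 and 15.5 CPM in HEK293T. NOP56 fell from 206 and 204 CPM to 91.9 and 76.3 CPM with siNOP56 (log2 difference −1.28, edgeR adjusted p 0.0287). In SLAM-seq FBL had 209 reads over all 16 libraries and was not tested, so the knockdown was not checked there. All 7 prostate luminal markers, KLK3 among them, were above 1 CPM in every C4-2 library (summed level 5210 to 8990 CPM). The 7 markers listed for HEK293T summed to 664 to 955 CPM with siCTRL, 865 to 1230 CPM with siFBL and 807 to 1220 CPM with siNOP56 in that line. Markers of other cells stayed low in C4-2: 6 of leukocytes summed to 19.4 to 27.2 CPM with siCTRL and 20 to 47.5 CPM with siFBL, 5 of fibroblasts to 24.7 to 46.8 CPM and 5 of neuroendocrine cells to 7.5 to 19.3 CPM. In HEK293T the neuroendocrine markers reached 189 CPM with siCTRL and 464 CPM with siFBL, the fibroblast markers 66.4 CPM and the leukocyte markers 13.2 CPM; their part in the results was not tested. The deviation of a replicate from its group persisted over the hours: the correlation between hours was 0.813 to 0.913 for siFBL and 0.655 to 0.882 for siNOP56 in HEK293T, against −0.025 to 0.2 for siCTRL. In C4-2 it was 0.676 to 0.813 for siFBL and −0.135 to 0.249 for siCTRL. Tests that pool the later hours treat those libraries as independent, so their p-values are too small, and tests of one hour against another leave the shared deviation in the error.

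Copies of the pentamer ATTTA were found in the 3′ UTR of 40 of the 44 members (90.91%), against 64.23% of 19114 protein-coding genes. In the middle range of the members' 3′ UTR lengths, 19 of 22 members (86.36%) and 79.05% of genes held one. The longer AU-rich nonamer TTATTTATT, which contains the pentamer, was found in 11 members (25%) and in 7.49% of all genes. Only the transcript's own strand was searched. The windows below are from the members with the nonamer that passed the test after FBL knockdown at later hours in C4-2, read 5′ to 3′ from GENCODE v29 transcripts (GRCh38), with the nonamer in capitals. They lie in 3′ UTR exons at chr6:37174985-37175014 (PIM1, + strand), chr19:39409196-39409225 (ZFP36, +), chr14:68788076-68788105 (ZFP36L1, −), chr2:43223447-43223476 (ZFP36L2, −), chr1:181092443-181092472 (IER5, +), chr11:1556373-1556402 (DUSP8, −), chr2:28416355-28416384 (FOSL2, +) and chr14:75282060-75282089 (FOS, +).
PIM1: tgttatgtatTTATTTATTtatttatttgg
ZFP36: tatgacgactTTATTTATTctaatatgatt
ZFP36L1: aactgttggaTTATTTATTttagaaattcc
ZFP36L2: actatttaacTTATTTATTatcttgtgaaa
IER5: gtgtcttcctTTATTTATTtatttatttaa
DUSP8: tttcgattttTTATTTATTtaagctgttca
FOSL2: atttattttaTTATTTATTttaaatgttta
FOS: tgtttttaatTTATTTATTaagatggattc
In PIM1 and IER5 the nonamer runs on into further overlapping copies of the pentamer, and in DUSP8 into another overlapping copy. A match is a run of letters and not a measured binding site.

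The members were expressed unequally in the cell lines before the time course. At 0 h with siCTRL, 33 of 44 were at or above 5 CPM in C4-2 and 30 in HEK293T, and 7 and 2 were below 1 CPM. MYC was the highest in both, at 367 and 366 CPM in C4-2 and 337 and 341 CPM in HEK293T. JUND (132 to 138 CPM), NFKBIA (130 to 139 CPM), PIM3 and MCL1 followed in C4-2. JUN (214 and 219 CPM) and MCL1 (135 and 138 CPM) followed in HEK293T. DUSP4, a nuclear phosphatase that inactivates ERK, was at 103 and 106 CPM in C4-2 and 4.26 and 4 CPM in HEK293T, and FOSL1 was at 0.584 and 0.365 CPM against 14.4 and 14.9 CPM. The lines were counted in separate tables, so these levels were set side by side without a test. FOS, SOCS3, DUSP6, EGR2, EGR3, FOSL1 and CTGF were the members below 1 CPM on average in C4-2, and their values rest on few reads.

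Most members lost the greater part of their level within the first interval of the C4-2 course. With siCTRL, 34 of 44 members fell between 0 and 3 h and none rose, where 6.43% of 23437 genes fell and 0.73% rose (edgeR's quasi-likelihood test, adjusted p below 0.05). The median log2 change was −3.02 for the members and 0.0 for all genes. NFKBIA, the inhibitor that holds NF-κB in the cytoplasm, went from 139 and 130 CPM to 1.15 and 1.15 CPM (log2 −6.86 ± 0.317 SE, adjusted p 5.18e-09). MYC went from 367 and 366 CPM to 4.38 and 3.56 CPM (−6.53 ± 0.427). In both genes the 3 h libraries stood far below every 0 h library. DUSP1, a phosphatase that switches off p38 and JNK, fell from 31.5 and 26.8 CPM to 0.409 and 0.375 CPM (−6.21 ± 0.593). SGK1, a serum-induced kinase, fell by 5.64 and JUN by 5.19 on the log2 scale.

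The groups differed in how much they lost. All 7 DUSP genes fell in C4-2 siCTRL (median log2 −4.11), as did all 4 KLF genes (−4.14), all 5 of ID1, ID2, ID3, HES1 and BHLHE40 (−4.01), the 3 kinases (−3.01) and the 3 ZFP36 genes (−1.92). Of the AP-1 genes only 3 of 7 passed, JUN, JUNB and FOSL2. JUND, the AP-1 subunit that resting cells also express, was at 138 and 132 CPM at 0 h and still at 58.1 and 67.6 CPM at 3 h (log2 −1.10 ± 0.451, adjusted p 0.211). With a term for the second replicate of each siRNA, added after seeing the data, this loss passed (adjusted p 0.000127). It reached 26.0 and 33.4 CPM at 6 h and 9.51 and 9.75 CPM at 12 h. PIM1, a growth-promoting kinase, lost least among the called kinases, from 13.7 and 13.5 CPM to 4.39 and 5.82 CPM (−1.42 ± 0.294). ZFP36L1 kept 36.2% of its 0 h level at 3 h.

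IER3, a stress-response gene, lost least of the members at or above 5 CPM. Its siCTRL libraries read 15.1 and 14.6 CPM at 0 h, 13.6 and 13.9 CPM at 3 h, 15.5 and 15.8 CPM at 6 h and 22.1 and 21.0 CPM at 12 h. The log2 change at 3 h was −0.11 ± 0.174 (adjusted p 0.889). With siFBL it stood at 12.3 and 15.6 CPM at 0 h and at 21.6 and 20.8 CPM at 12 h, so the level relative to other mRNAs was higher at the end than at the start with both siRNAs. The other members that did not pass the test in C4-2 siCTRL were JUND, EGR1, EGR2, EGR3, FOS, FOSB, FOSL1, SOCS3 and CTGF, all of them below 2 CPM at 0 h except JUND.

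**Figure D1:**
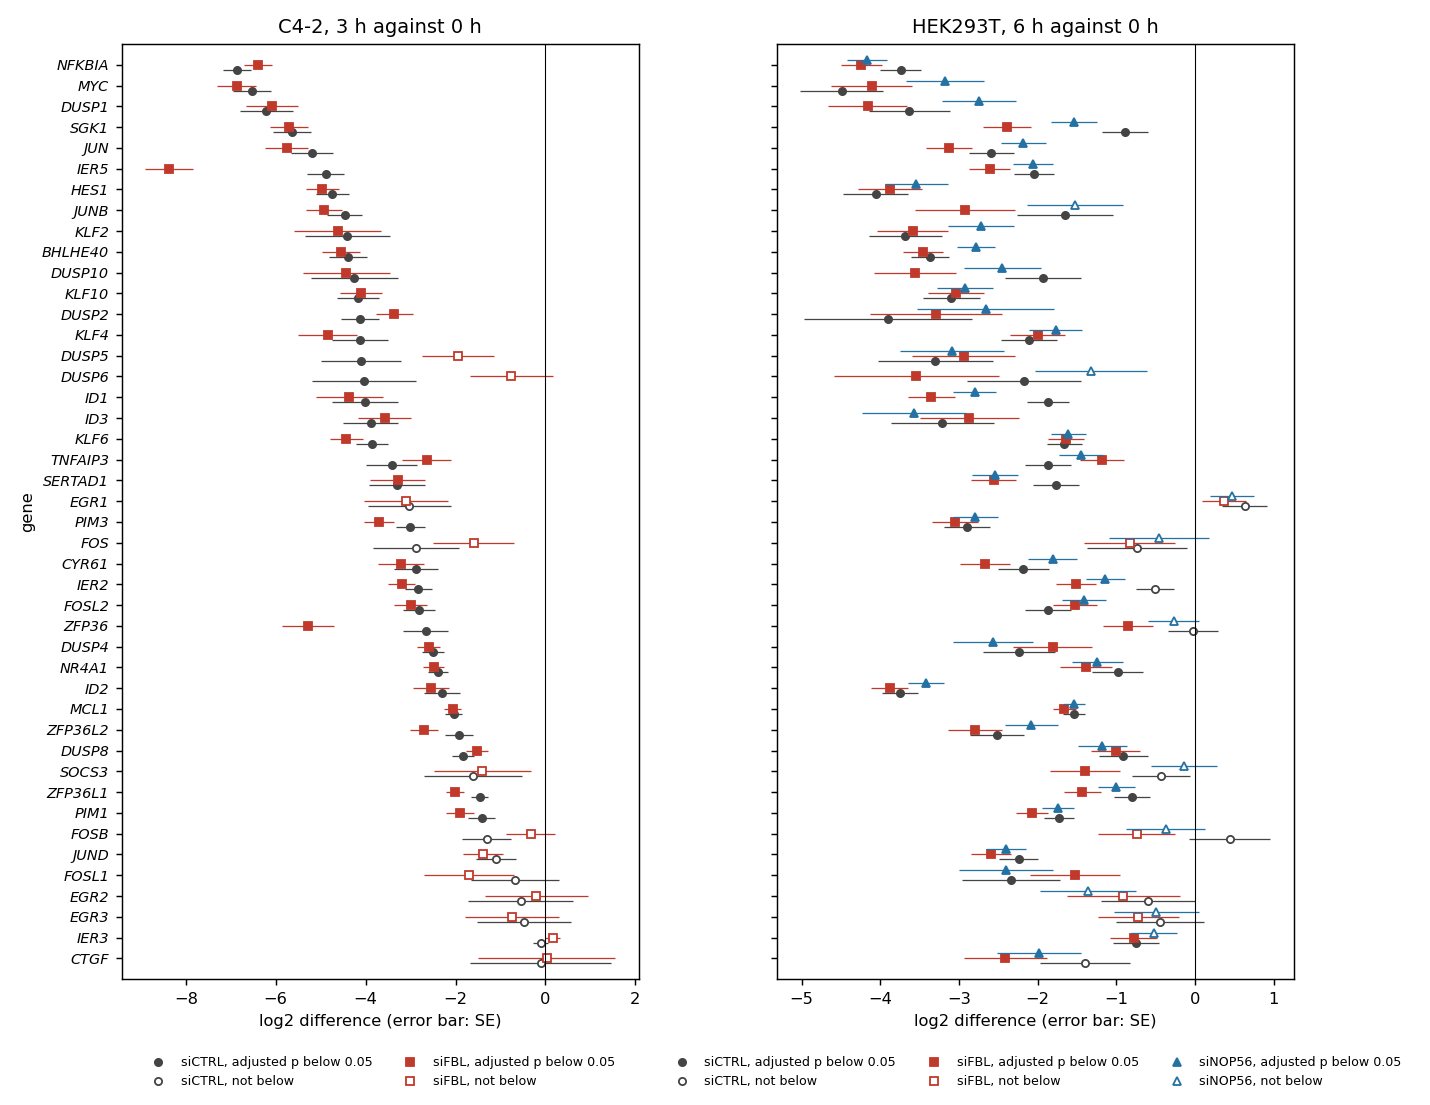
Change of each member over the first interval (log2, error bars 1 SE) in C4-2 (0 to 3 h) and HEK293T (0 to 6 h) for each siRNA, with filled points for members that passed the test. Nearly all points lie below 0, the C4-2 points reach lower (median −3.02 with siCTRL) than the HEK293T points (median −1.90), and IER3 lies near 0 in C4-2.

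In HEK293T the members fell less and then stopped falling. With siCTRL, 35 of 44 fell between 0 and 6 h and none rose, where 23.3% of 14939 genes fell and 20.8% rose; the median log2 change was −1.90 for the members and 0.09 for all genes. MYC went from 337 and 341 CPM to 16.3 and 13.8 CPM (−4.49 ± 0.526, adjusted p 5.55e-06). HES1, a Notch target that represses its own promoter, fell by 4.06, ID2 by 3.75 and NFKBIA by 3.74 on the log2 scale. JUN fell from 219 and 214 CPM to 36.0 and 35.9 CPM and was at 46.5 and 50 CPM at 24 h. MCL1, an anti-apoptotic BCL2 relative, read 135 and 138 CPM at 0 h, 47.9 and 46.1 CPM at 6 h, 49 and 50.3 CPM at 12 h and 56.4 and 57.3 CPM at 24 h. Neither gene went lower after 6 h.

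Over the members at or above 5 CPM at 0 h, the median level left in HEK293T siCTRL was 25.7% at 6 h, 27.2% at 12 h and 33.6% at 24 h (30 members). In C4-2 siCTRL it was 6.9% at 3 h, 4.65% at 6 h and 2.77% at 12 h (33 members). The hours differ between the lines, and the cause of the end of the loss in HEK293T after 6 h was not tested. EGR1, a zinc-finger factor induced by serum, read 5.9 and 6.11 CPM at 0 h and 8.76 and 9.84 CPM at 6 h in HEK293T siCTRL, a difference that did not pass the test (0.63 ± 0.282, adjusted p 0.0809) except with a term for the second replicate of each siRNA (adjusted p 0.0263). ZFP36 read 7.45 and 7.66 CPM at 0 h, 7.01 and 7.77 CPM at 6 h and 11.1 and 13 CPM at 24 h (−0.03 ± 0.319 at 6 h, adjusted p 0.946), while in C4-2 it fell by 2.66 on the log2 scale within 3 h.

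Members with the AU-rich nonamer had a smaller median loss than those without it. In C4-2 siCTRL the median log2 change at 3 h was −2.59 in 10 members with the nonamer and −4.12 in 23 without it. In HEK293T siCTRL at 6 h it was −1.87 in 9 and −2.24 in 21. DUSP1 (−6.21) and PIM1 (−1.42) are the extremes of the nonamer group in C4-2, although both hold the same 9 letters. These are descriptions with no test.

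The first-interval loss was seen with each knockdown. With siFBL, 32 of 44 members fell in C4-2 at 3 h (median −3.15) and none rose, where 6.4% of all genes fell and 1.28% rose. In HEK293T at 6 h 39 of 44 fell with siFBL (median −2.48) and none rose, where 23.5% of all genes fell and 19.5% rose. With siNOP56 34 of 44 fell at 6 h (median −1.89) and none rose, where 23.7% fell and 18.1% rose. The test of the difference of the loss, siFBL minus siCTRL, called 0 of 44 members and 0.0% of all genes in C4-2, with unadjusted p below 0.05 for 1 member with less loss and 2 with more. In HEK293T it called 0 of 44 (0.0%, unadjusted 0 and 4) for siFBL and 0 of 44 (0.0%, unadjusted 0 and 1) for siNOP56. DESeq2 also called none of the members in these 3 differences. These fits treat libraries of one replicate number as independent; with a term for the second replicate of each siRNA, IER5 was called in C4-2 (−3.47, edgeR adjusted p 0.0419) and again 0 members in HEK293T, with unadjusted p below 0.05 for 2 with less and 12 with more loss for siFBL and 3 and 4 for siNOP56.

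The 3 members with unadjusted p below 0.05 in C4-2 were IER5, ZFP36 and DUSP6. IER5, a gene induced by growth factors and heat stress, was at 13.4 and 14 CPM in siCTRL and 10.4 and 9.98 CPM in siFBL at 0 h. At 3 h it was at 0.564 and 0.356 CPM in siCTRL (58 and 37 counts) and at 0.0391 and 0.0196 CPM in siFBL (4 and 2 counts). The difference of the loss was −3.48 on the log2 scale (unadjusted edgeR p 6.8e-05), and the gap did not last: IER5 was at 0.333 and 0.317 CPM against 0.0746 and 0.201 CPM at 6 h, still with no overlap, and at 0.263 and 0.156 CPM against 0.0961 and 0.172 CPM at 12 h, where the libraries overlapped. ZFP36 was at 19.4 and 19.6 CPM against 16.6 and 20.1 CPM at 0 h, and at 2.85 and 3.31 CPM against 0.499 and 0.442 CPM at 3 h (−2.62, unadjusted edgeR p 0.00196). In HEK293T the members with unadjusted p below 0.05 for siFBL were ID1 (−1.48), SGK1 (−1.50), IER2 (−1.0) and DUSP10 (−1.63), each with more loss, and for siNOP56 ID1 (−0.93).

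Before the time course began, few members differed with FBL knockdown. In C4-2 at 0 h, PIM1 was the only one of 44 that passed (8.48% of all genes did, 6.87% of all genes being lower), at 13.7 and 13.5 CPM with siCTRL and 6.19 and 6.37 CPM with siFBL (log2 −1.12 ± 0.291, edgeR adjusted p 0.0254). The siFBL libraries stood below both siCTRL libraries. The call was lost when any 1 of the 4 libraries at 0 h was left out (adjusted p 0.00141 to 0.178 over all alternatives) and when libraries were scaled to ribosomal protein mRNAs. The next smallest p-values belonged to ZFP36L2, at 50.6 and 51.3 CPM against 31.2 and 27.0 CPM (−0.81, adjusted p 0.11), and SGK1 (0.79, adjusted p 0.165), neither of them called. MYC was at 367 and 366 CPM against 364 and 368 CPM, a difference of less than the spread between replicates. NOP56 was not called (−0.40).

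In HEK293T at 0 h, edgeR called 0 of 44 members with siFBL (1.74% of all genes) and 0 of 44 with siNOP56 (0.187%). At an unadjusted p below 0.05, 10 members were higher and 3 lower with siFBL, and 3 were higher and 3 lower with siNOP56. DESeq2 called 5 members with siFBL, 4 higher and 1 lower, and 0 with siNOP56. The share of all genes that DESeq2 called is not given, so its count has no background beside it. The smallest p-values with siFBL were those of SGK1 (4.97 and 5.98 CPM against 8.68 and 14.9 CPM, log2 1.11, edgeR adjusted p 0.0534), SERTAD1 (0.98, 0.0606) and CTGF, a YAP target (2.08 and 2.97 CPM against 4.57 and 11.3 CPM, 1.65, 0.0959). In each of these the second siFBL library was the higher one. That library stood apart in several members: JUNB was at 32.4 and 31.2 CPM with siCTRL and at 17.9 and 136 CPM with siFBL, DUSP1 at 20.3 and 18.2 CPM against 26.8 and 73.9 CPM, and MYC at 337 and 341 CPM against 174 and 421 CPM.

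The siFBL effect at 0 h differed between the lines for 2 of 44 members, where 7.36% of 20558 genes differed (edgeR interaction term). DUSP4 went from 103 and 106 CPM to 117 and 156 CPM in C4-2 and from 4.26 and 4 CPM to 1.52 and 2.4 CPM in HEK293T (C4-2 minus HEK293T 1.64, adjusted p 0.0159). ZFP36L2 was lower with siFBL in C4-2, as above, and at 52.2 and 50.3 CPM against 76.8 and 80.6 CPM in HEK293T (−1.24, adjusted p 0.0446). With DESeq2's size factors in edgeR only DUSP4 was called. Both lost their call without either siCTRL library or siFBL replicate 1 of HEK293T at 0 h, and without siCTRL replicate 1 or siFBL replicate 2 of C4-2; ZFP36L2 lost it without siFBL replicate 2 of HEK293T too.

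At the later hours of the C4-2 course 20 of 44 members differed with siFBL, 4 higher and 16 lower, where 34.6% of all genes differed, 12.7% higher and 21.9% lower (mean of the differences at 3, 6 and 12 h). The median log2 difference was −0.20 for the members and 0.09 for all genes. PIM1 was at 4.39 and 5.82, 3.28 and 2.49, and 1.08 and 1.29 CPM with siCTRL at 3, 6 and 12 h. With siFBL it was at 2.19 and 1.17, 0.511 and 0.422, and 0.168 and 0.126 CPM (log2 −2.41 ± 0.192, edgeR adjusted p 1.2e-07). ZFP36 was at 2.85 and 3.31, 2.52 and 3.43, and 3.64 and 2.11 CPM with siCTRL against 0.499 and 0.442, 1.09 and 0.148, and 0.408 and 0.333 CPM with siFBL (−2.64 ± 0.311, adjusted p 8.69e-06). In both genes every siFBL library was below both siCTRL libraries of its hour. PIM1 and ZFP36 were the 2 members whose call held under all 25 alternatives, each hour taken alone included. With the later hours summed into 1 library per replicate, 12 members were called, 1 higher and 11 lower: PIM1 (−2.14), ZFP36 (−2.75), ZFP36L2 (−1.57), ZFP36L1, IER5, JUN, KLF6, NR4A1, PIM3, CYR61 and HES1 were lower and DUSP6 was higher.

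All 3 ZFP36 genes were lower with siFBL at these hours, as were 4 of 7 AP-1 genes, 2 of 4 KLF genes, 2 of 3 kinases and both MYC and MCL1. With libraries scaled to ribosomal protein mRNAs JUNB, FOSL2 and KLF4 of these lost their call, at −0.53, −0.45 and −1.0 on the log2 scale. ZFP36L2 was at 12.4 and 14.5 CPM against 5.91 and 3.02 CPM at 3 h, 3.92 and 4.11 CPM against 2.51 and 1.35 CPM at 6 h, and 1.38 and 1.73 CPM against 0.769 and 1.15 CPM at 12 h (−1.11 ± 0.184). JUND was at 26 and 33.4 CPM against 19.7 and 6.1 CPM at 6 h and at 9.51 and 9.75 CPM against 4.75 and 2.2 CPM at 12 h (−1.05 ± 0.265). At 3 h the JUND libraries overlapped, with 58.1 and 67.6 CPM against 65.3 and 25.1 CPM. MYC, already near its floor at 3 h (4.38 and 3.56 CPM against 4.09 and 2.17 CPM), was at 2.56 and 2.95 CPM against 1.49 and 0.621 CPM at 12 h (−0.80 ± 0.213). JUN (−0.97), MCL1 (−0.45), NR4A1 (−0.82), KLF6 (−1.31), PIM3 (−0.85) and IER5 (−1.93) were lower as well. KLF4, JUNB, IER2, ZFP36L1 and FOSL2 were lower by −1.16, −0.69, −0.67, −0.63 and −0.60. Some of these also rest on few reads. IER5 was below 1 CPM in every library from 3 h on, and KLF4 and KLF6 were below 1 CPM in every siFBL library at those hours. At 12 h KLF4 had 23 and 22 counts with siCTRL and 12 and 4 counts with siFBL.

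Of the 4 members that were higher, DUSP8 alone was above 1 CPM. DUSP8, which acts on JNK, was at 11 and 13 CPM against 16.7 and 23.5 CPM at 3 h, 5.14 and 6.36 CPM against 7.5 and 7.76 CPM at 6 h, and 3.14 and 1.96 CPM against 3.74 and 4.38 CPM at 12 h (0.61 ± 0.142, adjusted p 0.00362). FOS had 1 and 0 counts with siCTRL and 22 and 32 counts with siFBL at 12 h. SOCS3 had 0 and 0 counts with siCTRL and 9 and 4 counts with siFBL at that hour. DUSP6 had 1 and 2 counts with siCTRL and 66 and 29 counts with siFBL at 3 h. Their fitted log2 differences (FOS 3.05, SOCS3 2.45, DUSP6 2.55) depend on the prior count at such depths and are no measure of a fold.

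With each hour tested alone the calls were fewer, 7 members at 3 h, 4 members at 6 h and 11 members at 12 h. The share of all genes called is not given for these fits or for those with later hours summed. Their counts therefore have no background beside them. The first set was PIM1, ZFP36, IER5, KLF6, PIM3 and ZFP36L2 (lower) with DUSP6 (higher). The 6 h set was PIM1, ZFP36, ZFP36L2 and NR4A1. At 12 h PIM1 (−2.99), ZFP36 (−2.95), MYC, MCL1, IER2, JUNB, KLF6, NFKBIA, NR4A1 and ZFP36L1 were lower and FOS was higher. PIM1 was −1.60 at 3 h and −2.62 at 6 h. JUNB was 0.01 at 3 h, with libraries at 3.24 and 3.98 CPM against 2.04 and 5.22 CPM.

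**Figure D2:**
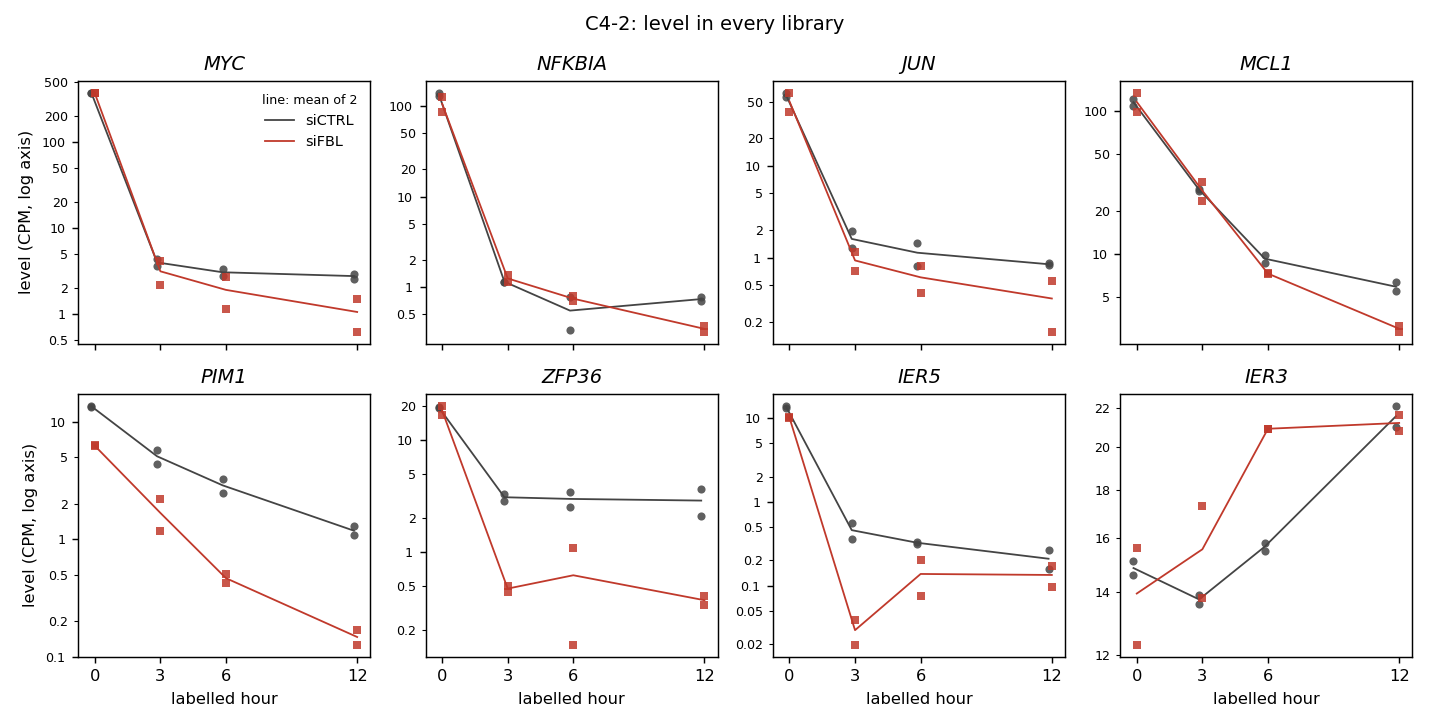
Level (CPM, log axis) of MYC, NFKBIA, JUN, MCL1, PIM1, ZFP36, IER5 and IER3 in each C4-2 library against hours, with lines through the mean of 2 libraries for siCTRL and siFBL. The siFBL libraries of PIM1 lie below siCTRL at every hour and those of ZFP36 from 3 h on, while IER3 stays between 12.3 and 22.1 CPM.

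In HEK293T at later hours, 16 of 44 members differed with siFBL, 6 higher and 10 lower, where 39.7% of all genes differed, 21.1% higher and 18.6% lower. Of the members 13.6% were higher and 22.7% lower, so their shares were not far from the background. PIM1 was at 4.58 and 4.36, 4.79 and 3.75, and 6.22 and 6.7 CPM with siCTRL at 6, 12 and 24 h. With siFBL it was at 2.48 and 2.28, 2.87 and 1.93, and 2.07 and 1.79 CPM (log2 −1.16 ± 0.123, edgeR adjusted p 5.01e-06), below siCTRL in every library. PIM1 was the 1 member of the 16 whose call held under all 33 alternatives. With the later hours summed into 1 library per replicate, 4 members remained called, FOSL1 (1.76), PIM1 (−1.17), SOCS3 (−1.68) and BHLHE40 (−0.95).

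SOCS3, a cytokine feedback inhibitor, was at 0.96 and 0.951, 0.996 and 1.04, and 1.23 and 1.48 CPM with siCTRL and at 0.339 and 0.326, 0.299 and 0.467, and 0.324 and 0.308 CPM with siFBL (−1.66 ± 0.26). BHLHE40, a transcriptional repressor, was at 6.84 and 7.83, 7.53 and 7.72, and 8.74 and 9.16 CPM against 4.85 and 3.53, 3.58 and 3.62, and 6.02 and 3.39 CPM (−0.94 ± 0.144). Neither gene's siRNA groups overlapped. ZFP36 was at 7.01 and 7.77, 8.4 and 7.78, and 11.1 and 13 CPM against 4.85 and 6.62, 4.84 and 5.26, and 6.35 and 10 CPM (−0.53 ± 0.187, adjusted p 0.0328). DUSP4 (−1.12), ID1 (−0.88), NR4A1 (−0.61), IER3 (−0.49), IER2 (−0.44) and JUND (−0.40) were lower too.

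The levels of the members that were higher with siFBL in HEK293T differed between its 2 replicates. FOSL1, an AP-1 subunit, was at 2.88 and 2.91, 3.05 and 2.31, and 4.99 and 3.38 CPM with siCTRL and at 5.42 and 16.4, 4.54 and 15.2, and 5.05 and 18.7 CPM with siFBL (1.77 ± 0.363, adjusted p 0.00117). ID3, a dominant-negative partner of bHLH factors, was at 9.66 and 6.99, 8.28 and 7.72, and 9.83 and 6.83 CPM against 7.17 and 30, 6.15 and 25, and 8.29 and 30.5 CPM (1.11 ± 0.362, adjusted p 0.0223). In both genes the higher siFBL library was the second at every hour, and for ID3 the first siFBL library overlapped siCTRL. DUSP1 (0.83), DUSP8 (0.70), FOSL2 (0.61) and CYR61 (0.55) were the other members that were higher. The count fell to 7 when siCTRL replicate 1 at 12 h or replicate 2 at 24 h was left out, and to 10 without siFBL replicate 2 at 6 h or at 12 h.

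With siNOP56 at later hours 11 of 44 members differed, 4 higher and 7 lower, where 27.0% of all genes differed, 14.7% higher and 12.3% lower. The siNOP56 and siFBL comparisons share their siCTRL libraries, so their values are given side by side and not set against each other. PIM1 was at 3.52 and 2.97, 3.02 and 2.72, and 3.53 and 3.05 CPM with siNOP56 (−0.67 ± 0.119, edgeR adjusted p 0.000897), below every siCTRL library. SOCS3 was at 0.782 and 0.469, 0.8 and 0.5, and 0.458 and 0.122 CPM (−1.16 ± 0.249). DUSP4 (−0.98), ZFP36 (−0.57), ZFP36L1 (−0.55), JUND (−0.49) and BHLHE40 (−0.48) were lower as well. MYC was at 16.2 and 49, 15 and 37.7, and 18.5 and 33 CPM with siNOP56 against 16.3 and 13.8, 14.3 and 12.8, and 17.3 and 16.6 CPM with siCTRL (0.89 ± 0.273), and the difference lay in replicate 2. FOSL1 (1.06), HES1 (0.75) and ZFP36L2 (0.70) were higher. With later hours summed per replicate 0 members were called with siNOP56. Leaving out 1 library gave 4 to 12, the low values of 4 to 6 without siCTRL replicate 1 or 2 at 6 or 24 h, siCTRL replicate 1 at 12 h, or siNOP56 replicate 2 at any later hour.

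**Figure D3:**
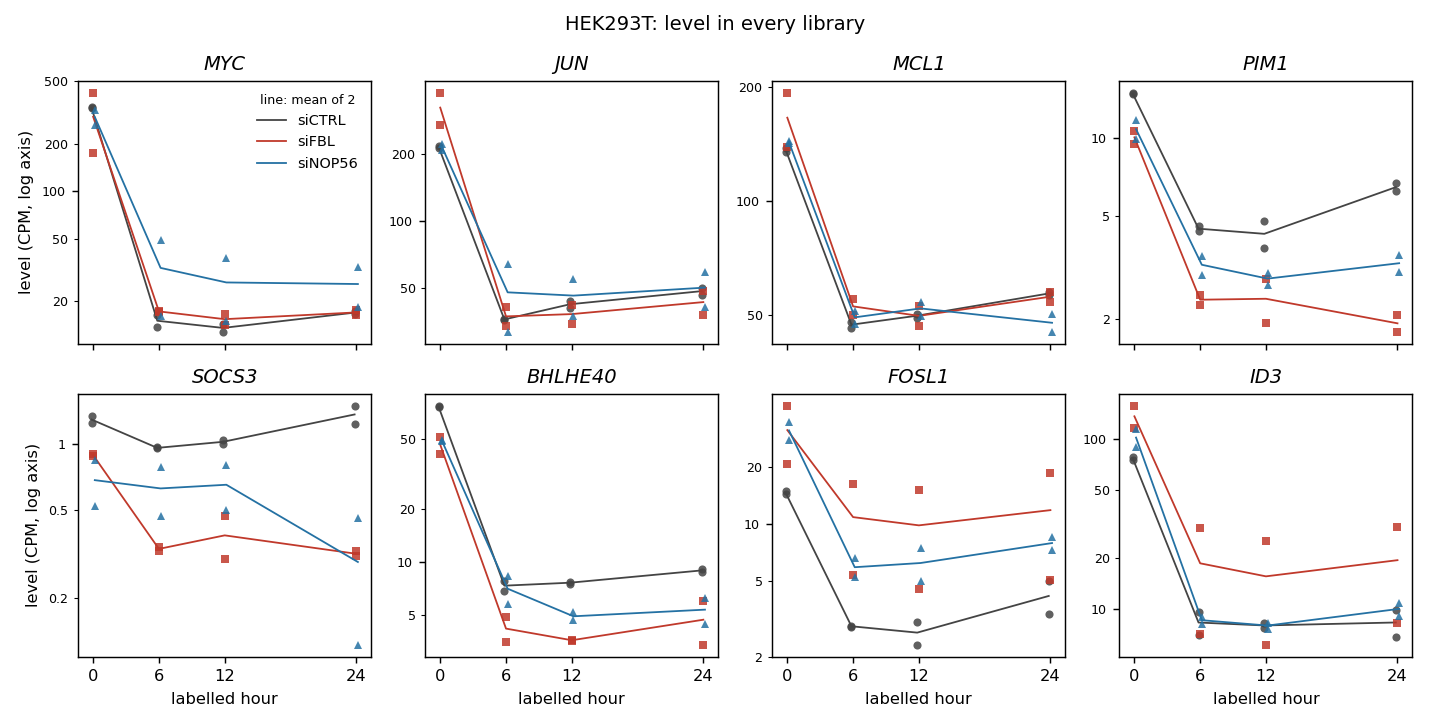
Level (CPM, log axis) of MYC, JUN, MCL1, PIM1, SOCS3, BHLHE40, FOSL1 and ID3 in each HEK293T library against hours, with lines through the mean of 2 libraries for siCTRL, siFBL and siNOP56. The fall ends by 6 h in most panels, PIM1 lies lowest with siFBL, and the FOSL1 and ID3 siFBL libraries lie far apart, as at 24 h with 8.29 and 30.5 CPM for ID3.

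Across the lines, 8 members were called with siFBL at later hours in both, 40% of the 20 in C4-2 and 50% of the 16 in HEK293T. Over all genes 39.7% were called in HEK293T and 34.6% in C4-2, and their overlap is not given. PIM1, ZFP36, JUND, NR4A1 and IER2 were lower in both lines and DUSP8 was higher in both. FOSL2 and SOCS3 went opposite ways: FOSL2 was −0.60 in C4-2 and 0.61 in HEK293T, and SOCS3 was 2.45 and −1.66. The SOCS3 value in C4-2 rests on few counts and is no measure of a fold. With later hours summed per replicate, SOCS3 was 0.75 in C4-2 (edgeR adjusted p 0.572), and FOSL2 was called in neither line. PIM1 was then the only member called in both lines. PIM1 at 0 h in HEK293T was at 14.7 and 14.9 CPM with siCTRL, 10.6 and 9.5 CPM with siFBL and 11.7 and 9.92 CPM with siNOP56. Those siFBL libraries were below siCTRL, as in C4-2, but the 0 h test did not call them in HEK293T.

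The reference level of these comparisons sets some counts. With libraries scaled to ribosomal protein mRNAs, which are long-lived, the median of all genes moved by 0.26 (0 h) and 0.24 (later hours) for siFBL in C4-2, by −0.33 and −0.50 for the 3 h loss with siCTRL and siFBL, and by −0.79, −0.71 and −0.75 for the 6 h loss in HEK293T with siCTRL, siFBL and siNOP56. The share of higher genes among those called went from 36.8% to 54.9% for siFBL in C4-2 at later hours, from 19.0% to 49.5% at 0 h and from 53.2% to 73.9% for siFBL in HEK293T at later hours. In the first-interval losses it fell to between 0.231% and 0.914%. The member counts were then 36 and 34 of 44 for the C4-2 losses, 41, 43 and 39 for the HEK293T losses, 19 for siFBL later in C4-2, 12 for siFBL later and 9 for siNOP56 later in HEK293T. The share of all genes called in these fits is not given, so these counts have no background beside them. PIM1 (−2.25), ZFP36 (−2.48), IER5 (−1.78) and ZFP36L2 (−0.95) kept their later-hours call in C4-2 under this scaling.

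RIP-seq asked which mRNAs are recovered with FBL in C4-2 cells. Of 40 members tested (FOSL1, EGR2, DUSP6 and CTGF had too few counts), 15 were enriched over input and 16 depleted, where 82.9% of 14967 genes differed, 39.9% enriched and 43.0% depleted. These shares are close to those of all genes, and the members' shares depend on the scaling, as given below. NFKBIA was the most enriched member, at 47.1 and 44.9 CPM in input and 202 and 190 CPM in RIP (log2 2.09 ± 0.0648). IER2, a nuclear protein of the growth factor response, was at 15.3 and 14.3 CPM against 54.8 and 58.1 CPM (1.93 ± 0.0787), and JUNB at 15.2 and 16.4 CPM against 44.6 and 52 CPM (1.61 ± 0.0849). TNFAIP3, a ubiquitin-editing inhibitor of NF-κB, was enriched by 1.35, JUND by 0.98 and JUN by 0.92 on the log2 scale. RIP and input libraries did not overlap for any of these.

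The strongest depletion was seen in IER3, SERTAD1 and ID3. IER3 was at 7.44 and 8.01 CPM in input and 1.79 and 1.85 CPM in RIP (−2.08 ± 0.169), SERTAD1 at 7.51 and 6.59 CPM against 1.71 and 1.81 CPM (−2.0 ± 0.175) and ID3 at 17.7 and 16.6 CPM against 5 and 5.96 CPM (−1.64 ± 0.117). ZFP36 (6.02 and 6.37 CPM against 2.37 and 1.93 CPM, −1.52) and PIM1 (17.3 and 17.9 CPM against 9.2 and 8.36 CPM, −1.01) were both depleted. In C4-2 they were the only members called lower with siFBL at each later hour taken alone. The siFBL libraries of ZFP36L1 and ZFP36L2 also lay below siCTRL at each of those hours. In RIP ZFP36L1 was enriched (0.61) and ZFP36L2 was not called (−0.04). By role, 4 of 6 tested AP-1 genes and both MYC (0.48) and MCL1 (0.43) were enriched, while 3 of 5 ID, HES1 and BHLHE40 genes and 2 of 3 kinases were depleted. The median transcript length was 3473 nt in enriched members, 2241.5 nt in depleted members and 3221 nt over all tested genes; the part of length in the enrichment was not tested.

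The smaller enrichments depend on the reference level. TMM factors were 1.388 and 1.385 for input and 0.722 and 0.721 for RIP. With libraries scaled to total counts, 4 of 40 members were enriched and 32 depleted (median −1.12). The share of all genes called with it is not given, so these counts have no background beside them. Under this scaling 8 members enriched under TMM changed sign: BHLHE40, DUSP4, DUSP8, FOSL2, JUN, MCL1, MYC and ZFP36L1. The 4 that stayed enriched were NFKBIA (1.15), IER2 (0.99), JUNB (0.67) and TNFAIP3 (0.4), while EGR3 (0.08), JUND (0.04) and KLF2 (0.03) lost their call. With no control antibody, binding to the beads cannot be told apart from binding to FBL. FBL mRNA itself was at 64.7 and 63.1 CPM in input and 81 and 80.1 CPM in RIP (0.33), and NOP56 at 103 and 99.5 CPM against 376 and 344 CPM (1.83).

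**Figure D4:**
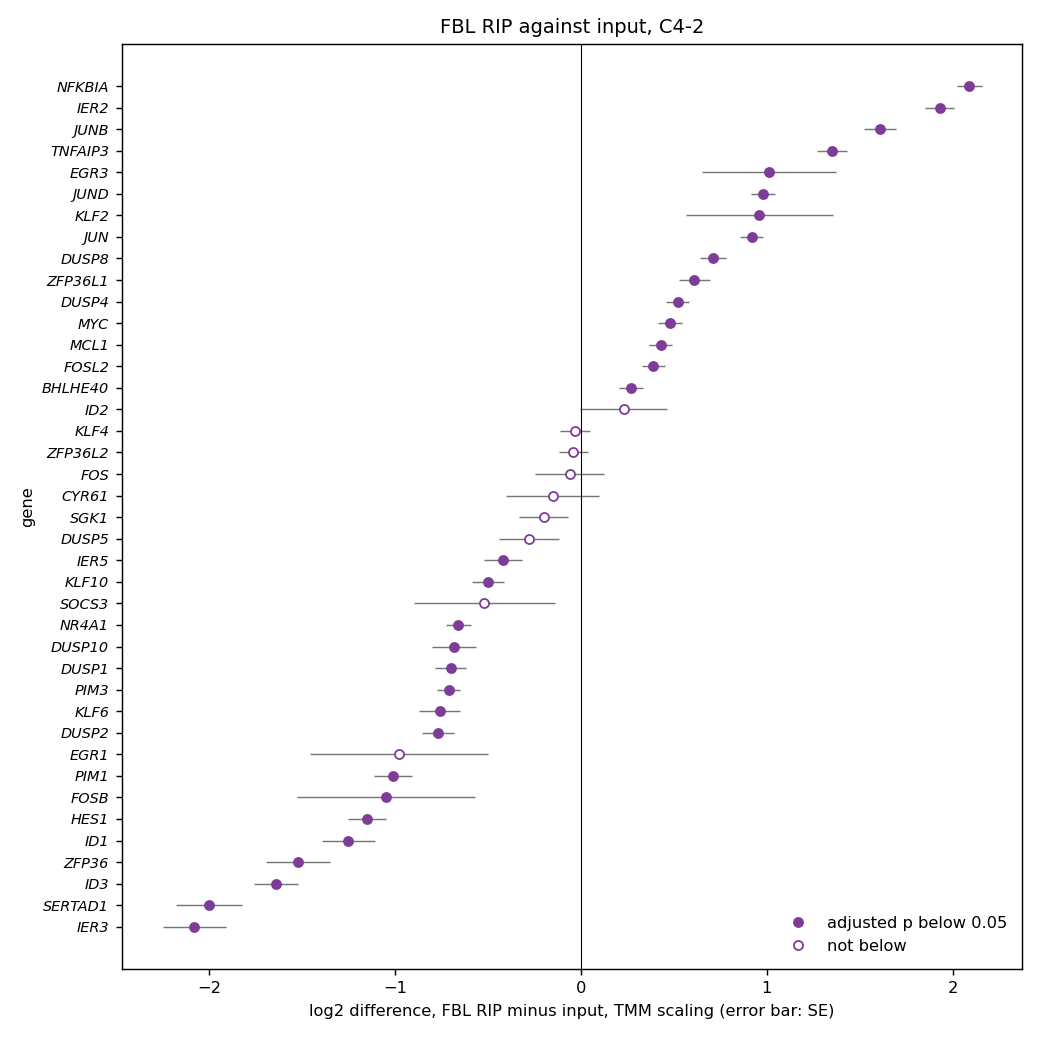
FBL RIP against input in C4-2 (log2 with error bars of 1 SE, TMM scaling) for the 40 tested members, with filled points for those that passed the test. NFKBIA (2.09), IER2 (1.93) and JUNB (1.61) lie at the enriched end and ID3 (−1.64), SERTAD1 (−2.0) and IER3 (−2.08) at the depleted end.

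SLAM-seq followed labelled RNA through a chase, so RNA made during labelling can carry T>C and RNA made later should carry little. In 12 of 16 libraries the hour in the file header differs from the labelled hour, while the siRNA agrees in all 16. By header hour the share of all reads with T>C fell steadily, from 56.8% and 56.7% at 0 h to 11.1% and 11.2% at 24 h with siCTRL. In labelled order it did not. The values below use the header hour and are a description with no test by hour; tests between siRNAs pool the hours.

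By 6 h of chase the members' share of reads with T>C was a small part of its 0 h value. The amount of labelled RNA was not computed. Over 24 members with at least 50 reads in every library, the median T>C share with siCTRL was 73.9% at 0 h, 9.0% at 6 h, 4.04% at 12 h and 2.17% at 24 h. Over 8591 genes it was 77.8%, 31.5%, 13.4% and 4.33%. At 6 h the members had kept a median of 12.5% of their 0 h share with siCTRL and 11.35% with siFBL. MYC had 79.4% (95% Wilson interval 76.4 to 82.1) and 78.4% of reads with T>C at 0 h and 10.8% (6.65 to 17.0) and 9.58% at 6 h with siCTRL; intervals cover counting error only. JUN went from 69.9% and 70.4% to 7.81% and 5.38%, while its total level stayed between 236 and 525 CPM over the 8 siCTRL libraries. ZFP36L1 (29.6% and 26.0% at 6 h) and JUND (22.6% and 22.3%) kept 33.0% and 26.2% of their 0 h share at 6 h with siCTRL, the most of the 24 members.

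The median T>C share was lower with siFBL at each header hour, over the members and over all genes. With siFBL the members' median was 57.6%, 6.42%, 2.85% and 1.37% at the 4 hours, and that of all genes 66.9%, 26.6%, 10.6% and 2.39%. Both siFBL libraries were below both siCTRL libraries in 22 of 24 members at 0 h, where 75.9% of genes were. They were below in 12, 11 and 11 of 24 at 6, 12 and 24 h, where 54.3%, 43.9% and 49.3% of genes were. JUND was at 85.9% and 85.6% with siCTRL against 66.9% and 69.2% with siFBL at 0 h, and at 22.6% and 22.3% against 8.25% and 9.49% at 6 h. With siFBL JUND kept 13% of its 0 h share. ZFP36L2 went the other way at 6 h, with both siFBL libraries above both siCTRL libraries as in 2 of 24 members and 4.03% of genes, at 8.06% and 5.36% with siCTRL against 18.9% and 14.3% with siFBL. The lower shares at 0 h, at the end of labelling, were present before any chase.

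Relative to each library's overall T>C level, the share of T>C reads differed between siRNAs in 0 of 27 tested members (0.0% of 10230 genes, edgeR; 0 at an unadjusted p below 0.05, and 0 by limma). With the header hour added as a term, chosen after seeing the data, JUND alone was called (−0.77, adjusted p 0.00521; 0.665% of genes). Total reads differed in 1 of 36 tested members, JUND (−0.93 ± 0.215, edgeR adjusted p 0.0445), where 0.861% of 13130 genes differed. JUND was at 412 to 919 CPM in siCTRL and 164 to 390 CPM in siFBL, with no overlap between the siRNAs. The 2 siFBL libraries of header hour 24 had the lowest values (164 and 167 CPM), and without the 4 libraries of that hour the difference was −0.41 and still called. The JUND call was lost under 14 of 24 alternatives (adjusted p 0.00419 to 0.0862 over all of them). These were the labelled hour as a term, a replicate block, summed intervals, and leaving out, by labelled hour, siCTRL replicate 1 of 24 h, siCTRL replicate 2 of 0, 6 or 12 h, or any siFBL library but replicate 1 of 0 h. The next smallest p-values belonged to KLF4 (−0.92, adjusted p 0.11) and JUNB (−0.86, adjusted p 0.119), neither of them called. PIM1 had 39 to 174 reads a library, and its total reads did not differ (−0.40, adjusted p 0.619).

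**Figure D5:**
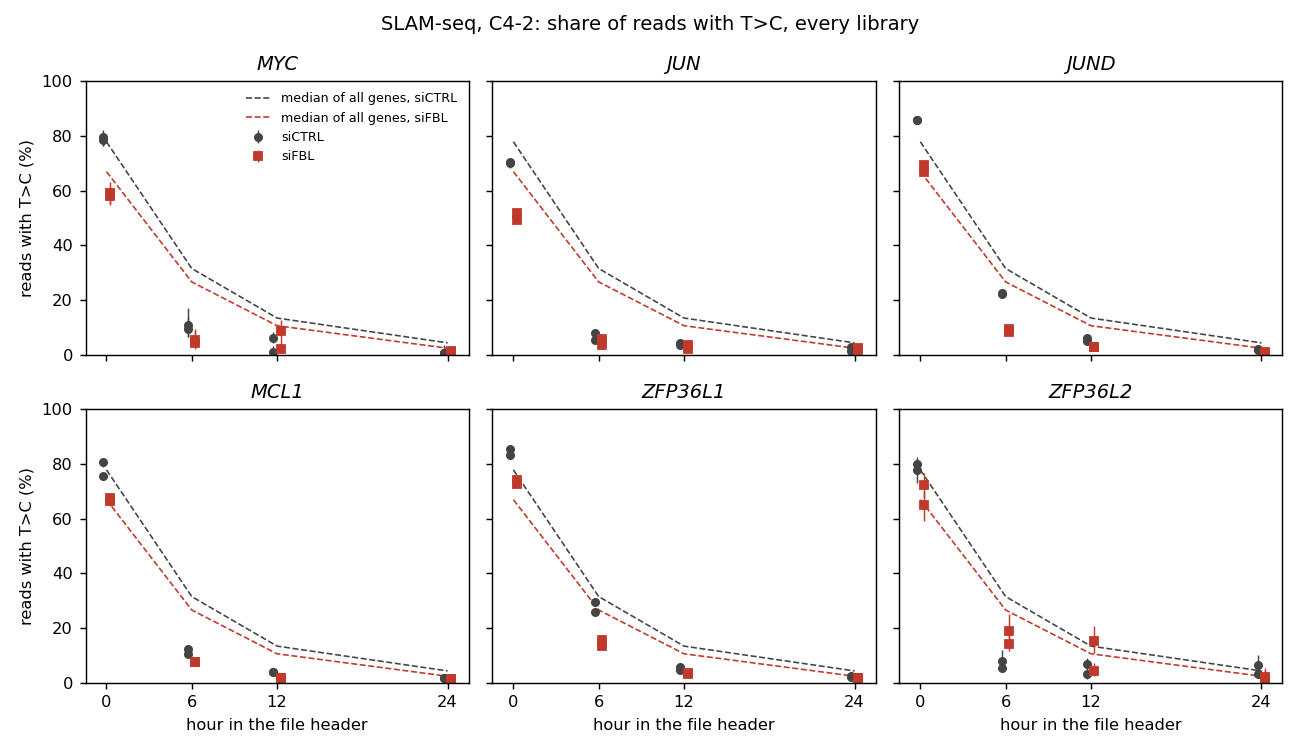
Share of reads with T>C (percent, linear axis, 95% Wilson intervals) for MYC, JUN, JUND, MCL1, ZFP36L1 and ZFP36L2. Points are single SLAM-seq libraries against the hour in the file header, with the median of all genes as a dashed line. By 6 h the members lie below the median of all genes with siCTRL (31.5%), and JUND is lower with siFBL (8.25% and 9.49%) than with siCTRL (22.6% and 22.3%).

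Genes related to the members were listed apart. Of 41 other immediate early genes, 30 fell and none rose within 3 h in C4-2 siCTRL (median −2.90). Over all genes 6.43% fell and 0.73% rose. CITED2 (−5.74), RHOB (−3.56) and KLF9 (−2.97) were among the 41 and fell. At later hours with siFBL 4 were higher and 13 lower in C4-2 (12.7% and 21.9% of all genes), and 7 and 11 of 39 in HEK293T (21.1% and 18.6%). BTG2, an antiproliferative gene, was higher with siFBL at 0 h in both lines (2.48 and 0.99 on the log2 scale, adjusted p 0.000736 and 0.0346), and LIF was as well (2.26 and 1.07). Of 12 genes of AU-rich element binding and mRNA decay, 11 were lower and none higher with siFBL at later hours in C4-2 (median −0.67). They were led by HNRNPD (−0.92), TIA1 (−0.85) and ZC3H12A (−1.15). Over all genes 21.9% were lower and 12.7% higher in C4-2, and 18.6% and 21.1% in HEK293T. In HEK293T 4 of the 12 were higher and 1 lower. With ribosomal protein scaling 10 were lower in C4-2 and 7 higher in HEK293T. In RIP 8 of 11 were enriched and 3 depleted (median 0.9), where 39.9% of all genes were enriched and 43.0% depleted. HNRNPD was enriched by 1.87 and ELAVL1, an mRNA-stabilising protein, by 1.35. With total-count scaling, however, 4 of the 11 were enriched and 5 depleted (median −0.05). For neither of these other scalings is the share of all genes called given.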

How the data were processed

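The 44 members and the other gene lists were chosen with earlier results of these data known. RNA-seq and RIP values are counts per gene as deposited by the authors; the submitters' processing notes name TopHat2 2.1.1, HOMER and Trim Galore and list the builds hg38, GRCh38.p13 and hg19 without a role, and no source used here states the strand setting of the counting. Per the file headers, slamdunk 0.4.3 produced the SLAM-seq tables. They hold counts of reads and of T>C reads per 3′ UTR interval, a deposited CPM score and a deposited fraction of converted T, the last 2 read but not tested. For each gene the interval with the highest read count stood for the gene.

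Counts were fitted with edgeR 4.0.16 (R 4.3.3; TMM, filterByExpr, quasi-likelihood test, Benjamini-Hochberg over all genes, called below an adjusted p of 0.05). The models had 1 mean per siRNA and hour over all libraries of a table, RIP against input, or siRNA with hours pooled for SLAM-seq. C4-2 columns were matched to groups by siRNA and hour and not to single samples, since their names are spelled unlike the titles; the replicate number is the column's own. Percent remaining was computed for members at or above 5 CPM. T>C shares used genes with at least 50 reads in every library, with 95% Wilson intervals. Alternatives used DESeq2 1.42.0, limma 3.58.1, other scalings and filters, a replicate block and leaving out libraries. Scripts were tested on simulated data. Any member could be named, called members were given by library where they were called in most comparisons, and at most 3 called genes with the smallest adjusted p were taken from each other list. Replicates of a group differed by more than counting noise in every table.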

Additional observations from a re-analysis of the deposited data

Results flagged for a closer look

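DUSP4 and ZFP36L2 were the members for which the FBL knockdown effect at 0 h differed between the cell lines by an edgeR interaction term, with a C4-2 minus HEK293T difference of 1.64 for DUSP4 (adjusted p 0.0159) and −1.24 for ZFP36L2 (adjusted p 0.0446). No difference within a line was called by edgeR at 0 h: DUSP4 was 0.39 in C4-2 (adjusted p 0.315) and −1.07 in HEK293T (0.183), and ZFP36L2 was −0.81 (0.11) and 0.62 (0.321).

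Among total reads of the 8 SLAM-seq libraries of each siRNA, 5 of 72 checks found 1 library far from the others, where about 1 in 20 is expected by chance. With siCTRL these were EGR1 at 4.9 CPM, FOS at 10.0 CPM and TNFAIP3 at 12.9 CPM, each the highest of its 8 libraries, and all 3 in 1 library, replicate 1 of header hour 24. With siFBL they were DUSP6 at 1.51 CPM and SGK1 at 4.0 CPM, both in replicate 2 of header hour 6. The cause was not tested for these values.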

How the results depend on the processing

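Counts below are members called by edgeR unless another test is named. They are given without the share of all genes called in the same fits. For siFBL at 0 h in C4-2 (1 called), DESeq2 gave 2, the 0 h libraries alone 2 and ribosomal protein scaling 0. For siFBL later in C4-2 (20), testing 3, 6 or 12 h alone gave 7, 4 and 11 and summing the later hours 12. For siFBL at 0 h in HEK293T (0), DESeq2 gave 5, no filter 1 and ribosomal protein scaling 1. A slope over all hours gave 20 in place of 35 for the loss in HEK293T siCTRL. Summing the later hours gave 4 for siFBL (16) and 0 for siNOP56 (11); 6, 12 and 24 h alone gave 1, 2 and 4 for siFBL and 0, 0 and 2 for siNOP56. The line difference (2) was 1 with DESeq2's size factors. For SLAM-seq total reads (1), DESeq2 gave 3, the header hour as a term 6, and the labelled hour as a term or summed intervals 0. For the T>C share (0), the header hour as a term gave 1.

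Values that changed sign were JUNB at 3 h alone in C4-2 (0.008), the IER3 slope in HEK293T siCTRL (0.003), and in RIP with total-count scaling BHLHE40 (−0.67), DUSP4 (−0.42), DUSP8 (−0.23), FOSL2 (−0.55), JUN (−0.02), MCL1 (−0.52), MYC (−0.46) and ZFP36L1 (−0.33). The cause was not tested for any of these. The summed hours, the single hours, the block within each siRNA, total-count scaling and the header hour were added after seeing the data.

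Leaving out 1 library gave 0 to 1 (siFBL at 0 h), 17 to 22 (later), 26 to 35 and 31 to 34 (losses) in C4-2. It gave 0 to 4 and 7 to 18 for siFBL at 0 h and later in HEK293T, 4 to 12 for siNOP56 later, 28 to 37, 29 to 40 and 31 to 35 for the losses with siCTRL, siFBL and siNOP56, 0 to 2 for the line difference (run only for the 8 libraries at 0 h), 28 to 31 for RIP, 0 to 1 for SLAM-seq total reads and 0 for its T>C share. The 4 for siFBL at 0 h came without siFBL replicate 1.

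With a replicate block, C4-2 gave 1 and 21 for siFBL at 0 h and later and 36 and 34 for the losses. HEK293T gave 6 for siFBL at 0 h, 18 and 14 for siFBL and siNOP56 later, and 36, 39 and 35 for the losses; RIP gave 31, and SLAM-seq total reads and T>C share 0. The block changed no count of the differences of loss (0). Replicate numbers do not pair siRNAs: deviations of same-numbered libraries at 1 hour correlated at −0.122 to 0.082 in C4-2, and in HEK293T at −0.023 to 0.034 (siCTRL and siFBL), −0.01 to 0.229 (siCTRL and siNOP56) and 0.01 to 0.055 (siFBL and siNOP56). Within siFBL and siNOP56 they pair the hours; a replicate block within each siRNA gave 37 and 34 for the losses in C4-2 and 38, 40 and 37 in HEK293T, and 1, 0 and 0 for the differences.

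Depth limits members below 1 CPM in C4-2 (FOS, SOCS3, DUSP6, EGR2, EGR3, FOSL1, CTGF), where a few reads make a fold. In SLAM-seq 24 of 44 members had the reads to give a share. Missing reads did not always go with a low level. IER3, DUSP8 and ID3 had 0, 1 and 20 reads over the 16 SLAM-seq libraries. In the C4-2 course with siCTRL they averaged 14.8, 43.0 and 53.7 CPM at 0 h. The cause was not tested.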

Other observations

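Of 20 genes of the ERK pathway and its feedback, 5 fell and none rose within 3 h in C4-2 siCTRL (median −0.27; 6.43% of all genes fell), among them the Sprouty and Spred inhibitors SPRY1 (−3.87 ± 0.467 SE, edgeR adjusted p 4.76e-05) and SPRED2 (−2.61 ± 0.327) and the phosphatase gene DUSP7 (−2.57 ± 0.254). In HEK293T siCTRL 6 of 19 fell and 2 rose within 6 h, where 23.3% of all genes fell and 20.8% rose, with SPRY1 at −2.81, SPRY2 at −2.62 and SPRED2 at −2.33. At later hours with siFBL in HEK293T the kinases BRAF (1.15 ± 0.146) and MAP2K2 (1.18 ± 0.152) were higher and SPRED2 (−1.16 ± 0.168) was lower, in a list with 5 higher and 6 lower of 19 (21.1% and 18.6% of all genes), and 8 higher and 5 lower with ribosomal protein scaling. In C4-2 at those hours 4 were higher and 7 lower of 20 (12.7% and 21.9% of all genes), the phosphatase gene DUSP9 (−0.46) among the lower. Under ribosomal protein scaling the share of all genes called is not given.

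Of 20 transcription factors that act upstream of immediate early genes, 11 were higher and 2 lower with siFBL at later hours in HEK293T (median 0.27; 21.1% and 18.6% of all genes), led by SRF (0.98 ± 0.0804, edgeR adjusted p 5.36e-07), NFKB1 (0.97) and YAP1 (0.43). In C4-2 2 were higher and 9 lower (median −0.29; 12.7% and 21.9% of all genes), with TEAD4 (−0.72) and ATF1 (−0.63) lower and WWTR1 (0.88) higher. With ribosomal protein scaling the counts were 13 higher and 1 lower in HEK293T and 4 higher and 8 lower in C4-2. Under that scaling the share of all genes called is not given. The difference between the lines was tested at 0 h only, where WWTR1 (C4-2 minus HEK293T 1.67), TEAD1 (−1.34) and SRF (−0.78) were called.

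In the order of the labels, the share of all SLAM-seq reads with T>C at 0, 6, 12 and 24 h was 56.8%, 23.0%, 56.7% and 23.2% in siCTRL replicate 1 and 11.1%, 34.9%, 11.2% and 35.5% in replicate 2. With siFBL it was 53.8%, 19.7%, 53.5% and 20.1% in replicate 1 and 5.2%, 31.1%, 5.3% and 31.4% in replicate 2.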
